A study of Mus musculus with 8 samples.

Results

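The 10 genes described here are 8 drug-metabolising cytochromes P450 and the nuclear receptors that are best known for switching such genes on. The P450 genes are Cyp3a11, Cyp3a13, Cyp3a16, Cyp3a25 and Cyp3a59 of the Cyp3a family and Cyp2b9, Cyp2b10 and Cyp2b13 of the Cyp2b family. The receptor genes are Nr1i2, which encodes PXR (pregnane X receptor), and Nr1i3, which encodes CAR (constitutive androstane receptor). They were taken by gene name from the deposited expression table, which lists 55487 genes. All 10 were listed there, and 9 were among the 11514 tested genes, those that reached 1 FPKM in 2 or more of the 8 libraries. FPKM is the number of fragments scaled to transcript length and to the library's total, a level per transcript length that can be set side by side between genes. Cyp2b13 did not pass.

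The libraries are polyA RNA-seq of whole liver from male wild-type C57BL/6N mice, from a study on the detection of hepatocellular carcinoma, and they form 4 groups of diet and injection. ND+oil (3 libraries) had chow, tap water and injected corn oil. WD+oil (2 libraries) had a high-fat western diet, water with 23.1 g/L fructose and 18.9 g/L glucose, and corn oil. ND+CCl4 (2 libraries) had chow, tap water and carbon tetrachloride (CCl4), a solvent that P450 enzymes turn into a radical toxic to hepatocytes, and WD+CCl4 (1 library) had both the western diet and CCl4. Every mouse was thus injected into the peritoneum each week, the controls with the vehicle. Age, dose and duration are not given in the sources used here, nor is it said whether each library is a separate animal, so p-values reflect only how far these libraries scatter, and part of that scatter may be technical.

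PXR and CAR are receptors for foreign chemicals, bile acids and steroid metabolites. Each pairs with RXR and binds pairs of a short DNA motif near the genes it regulates, and CAR waits in the cytoplasm bound to HSP90 until it is activated. In mouse liver Cyp3a11 is the standard readout of PXR and Cyp2b10 that of CAR, with overlap between the receptors. Cyp3a and Cyp2b enzymes oxidise drugs, steroids and bile acids with electrons from cytochrome P450 reductase, and most of their transcript lies in hepatocytes near the central vein. Several relatives, among them Cyp2b9, Cyp2b13, Cyp3a16, Cyp3a41a, Cyp3a41b and Cyp3a44, are low in adult male liver and higher in female or immature liver.

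The depth of the libraries is unknown, since the values are FPKM, and the lowest FPKM above 0 lay between 0.252 and 0.318 in each library, so a gene listed at 0 is only known to be under about that level. The major urinary protein (Mup) genes, 22 in the table, took 15.6% to 30.6% of all FPKM in the ND+oil libraries, 8.16% and 8.61% in WD+oil, 2.33% and 3.98% in ND+CCl4 and 7.06% in WD+CCl4. The median log2 difference of all tested genes from ND+oil was above 0: 0.22 for WD+oil, 0.26 for ND+CCl4 and 0.19 for WD+CCl4. With the Mup genes removed and the libraries rescaled these medians were 0.11, 0.16 and 0.07. Differences from ND+oil below are best read relative to these shifts. A median-of-ratios scaling of the libraries took the medians to at most 0.01 and lowered the share of called genes that were higher from 86.4% to 75.1% for WD+oil and from 72.0% to 40.0% for ND+CCl4, both against ND+oil. All 8 hepatocyte markers in the table, albumin and transthyretin among them, were detected, with a summed FPKM of 31379 to 57766.

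Positions are on GRCm38 (GENCODE M21 annotation). Cyp3a16, Cyp3a11, Cyp3a25 and Cyp3a59 sit in a cluster on chromosome 5, from Cyp3a16 at chr5:145436309-145469723 to Cyp3a59 at chr5:146079257-146113287, and Cyp3a13 lies apart at chr5:137892932-137921619. The Cyp2b genes sit on chromosome 7, Cyp2b10 at chr7:25897620-25926624, Cyp2b13 at chr7:26061497-26096197 and Cyp2b9 at chr7:26173411-26210661. Nr1i2 is at chr16:38248323-38294824 and Nr1i3 at chr1:171213970-171220701. All are protein-coding. Family members share sequence, so reads can be split between them: the longest coding transcripts of Cyp3a25 and Cyp3a59 are 97.04% identical, and 5.58% of the 100-base windows of Cyp3a25 occur exactly in another Cyp3a or Cyp2b transcript, almost as in Cyp3a59 (5.61%). For Cyp2b9 and Cyp2b13 the identity is 91.88% and the shared windows are 1.18% each. Cyp3a11 shares 0.312% of its windows, Cyp3a16 0.123%, and Cyp3a13 and Cyp2b10 share 0. Values of the pairs Cyp3a25 with Cyp3a59 and Cyp2b9 with Cyp2b13 are therefore less certain than those of the others, and the single-library values of Cyp3a41a and Cyp3a41b, whose transcripts are 99.9% identical, cannot be assigned to 1 of them.

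The windows around the start sites show how closely the paralogs resemble each other just where their transcription begins. Each is 300 bases, 250 before and 50 after the start, from RefSeq on GRCm38.p6, given 5′ to 3′ on the gene's own strand. All 10 genes had such a window. In the 4 Cyp3a windows printed, capitals mark the hexamer AGNTCA on either strand, the unit that PXR, CAR and other RXR partners bind in pairs.
Cyp3a11, chr5:145879805-145880104, minus strand: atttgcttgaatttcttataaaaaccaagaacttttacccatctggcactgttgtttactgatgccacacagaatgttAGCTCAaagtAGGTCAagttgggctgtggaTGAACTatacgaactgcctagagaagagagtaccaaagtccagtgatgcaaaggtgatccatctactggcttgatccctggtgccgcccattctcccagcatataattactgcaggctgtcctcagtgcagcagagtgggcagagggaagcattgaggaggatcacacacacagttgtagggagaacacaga
Cyp3a16, chr5:145469674-145469973, minus strand: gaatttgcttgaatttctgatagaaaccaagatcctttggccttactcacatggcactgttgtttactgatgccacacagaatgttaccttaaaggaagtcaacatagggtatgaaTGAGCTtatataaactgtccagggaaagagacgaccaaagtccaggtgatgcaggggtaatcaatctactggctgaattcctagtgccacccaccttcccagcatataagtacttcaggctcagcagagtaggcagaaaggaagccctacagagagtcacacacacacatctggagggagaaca
Cyp3a25, chr5:146009569-146009868, minus strand: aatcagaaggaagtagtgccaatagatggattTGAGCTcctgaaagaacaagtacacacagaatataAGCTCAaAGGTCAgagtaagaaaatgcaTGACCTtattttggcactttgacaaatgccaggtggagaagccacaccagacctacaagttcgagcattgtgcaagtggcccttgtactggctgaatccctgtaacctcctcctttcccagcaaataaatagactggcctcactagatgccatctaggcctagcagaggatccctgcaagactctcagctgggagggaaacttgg
Cyp3a59, chr5:146079008-146079307, plus strand: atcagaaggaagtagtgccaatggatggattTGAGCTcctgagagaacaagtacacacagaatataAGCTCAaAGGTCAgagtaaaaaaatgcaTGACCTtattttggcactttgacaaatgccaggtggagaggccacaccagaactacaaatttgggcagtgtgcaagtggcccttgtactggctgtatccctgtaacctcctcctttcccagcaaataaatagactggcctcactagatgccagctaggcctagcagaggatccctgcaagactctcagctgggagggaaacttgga

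Cyp3a11 held the pair AGCTCAAAGTAGGTCA from position -172 to -157, counting the start base as 0. That is a direct repeat, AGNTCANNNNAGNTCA, found in 0.125% of the 32851 RefSeq windows searched. Cyp3a25 and Cyp3a59 held the tighter pair AGCTCAAAGGTCA, at -183 to -171 and at -184 to -172. It matches AGNTCANAGNTCA, found in 0.219% of windows. Their windows were 96.32% identical. Cyp3a16 held a single hexamer, and its window was 82.17% identical to that of Cyp3a11. A single hexamer is common, at 46.6% of windows. The arrangements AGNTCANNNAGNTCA (0.07% of windows), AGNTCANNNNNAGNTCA (0.204%) and TGANCTNNNNNNAGNTCA (0.0304%) were also searched on both strands and matched none of the 10 windows. The Cyp2b10 window held no hexamer. The windows cover none of the distant enhancers, and a match is a description of letters and not a binding site.

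The Cyp2b9 and Cyp2b13 windows are printed because they differ at only 2 of 300 bases, in capitals below, while Cyp2b9 was listed above 0 in 7 libraries and Cyp2b13 in 2. Counted from 1 at the 5′ end, with the base of Cyp2b9 named before that of Cyp2b13, the differences are T48C and C104T.
Cyp2b9, chr7:26173159-26173458, plus strand: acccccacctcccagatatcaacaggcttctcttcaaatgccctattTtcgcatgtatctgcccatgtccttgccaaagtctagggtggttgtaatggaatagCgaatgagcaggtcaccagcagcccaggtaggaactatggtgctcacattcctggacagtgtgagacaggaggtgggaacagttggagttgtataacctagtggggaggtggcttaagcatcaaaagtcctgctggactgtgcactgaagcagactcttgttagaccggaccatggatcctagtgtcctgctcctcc
Cyp2b13, chr7:26061245-26061544, plus strand: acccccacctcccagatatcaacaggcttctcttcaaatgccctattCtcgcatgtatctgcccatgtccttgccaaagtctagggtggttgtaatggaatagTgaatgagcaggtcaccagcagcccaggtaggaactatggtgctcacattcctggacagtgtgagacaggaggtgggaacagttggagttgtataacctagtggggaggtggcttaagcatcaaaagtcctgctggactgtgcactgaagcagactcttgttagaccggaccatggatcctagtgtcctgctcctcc

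The receptors were expressed at a moderate level in every library. CAR (Nr1i3) was 28.1, 31.6 and 27.5 FPKM in the ND+oil libraries, 26.9 and 39.5 in WD+oil, 26.5 and 19.5 in ND+CCl4 and 11.0 in WD+CCl4. The WD+CCl4 library was the lowest of the 8, at 11.0 against 19.5 for the next, and WD+oil overlapped ND+oil. Both ND+CCl4 libraries, at 26.5 and 19.5, lay under the ND+oil range. By limma on log2(FPKM + 1), with p-values adjusted over all 11514 tested genes, CAR passed in 0 of the 7 comparisons. The difference of WD+CCl4 from ND+oil was -1.33 ± 0.28 (SE, log2; adjusted p = 0.084), that of WD+CCl4 from WD+oil -1.49 ± 0.30 (adjusted p = 0.324), that of ND+CCl4 from ND+oil -0.34 (95% interval -0.85 to 0.17, adjusted p = 0.352) and that of WD+oil from ND+oil 0.16 (-0.34 to 0.67, adjusted p = 0.685). The last turned to -0.10 with median-of-ratios scaling. In whole liver, fewer hepatocytes and less RNA per hepatocyte cannot be told apart.

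PXR (Nr1i2) was 22.8, 16.3 and 13.1 FPKM in ND+oil, 20.6 and 30.0 in WD+oil, 28.6 and 23.6 in ND+CCl4 and 21.9 in WD+CCl4. Only ND+CCl4 lay wholly above ND+oil; the 1 WD+CCl4 value fell within the ND+oil range. No comparison passed for PXR by limma, the interaction of diet and CCl4 (-0.77 ± 0.44) included. Between groups the largest difference by limma was ND+CCl4 against ND+oil, 0.59 ± 0.26 (95% interval -0.02 to 1.20, adjusted p = 0.229), and WD+oil against ND+oil gave 0.53 (-0.08 to 1.14, adjusted p = 0.275). With median-of-ratios scaling these were 0.27 and 0.27. Between WD+oil and ND+CCl4 the PXR difference was small ( -0.06, 95% interval -0.73 to 0.61, adjusted p = 0.961), whereas Cyp3a11 differed between these groups as given next.

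Cyp3a11, the main PXR-inducible P450 of mouse liver, was the most abundant of the 10 in all 8 libraries and had the widest range among those detected throughout. It was 914, 565 and 648 FPKM in ND+oil, 337 and 389 in WD+oil, 1792 and 2178 in ND+CCl4 and 163 in WD+CCl4. No 2 groups overlapped, and the order from low to high was WD+CCl4, WD+oil, ND+oil and ND+CCl4. The group means were 709 ± 182 (SD, n = 3) in ND+oil, 363 ± 36.5 (n = 2) in WD+oil and 1985 ± 273 (n = 2) in ND+CCl4. By limma, Cyp3a11 rose with CCl4 under chow by 1.51 ± 0.25 (log2, adjusted p = 0.0365). It was lower in WD+CCl4 than in ND+oil, by -2.08 ± 0.32 (adjusted p = 0.0335), than in ND+CCl4, by -3.59 ± 0.34 (adjusted p = 0.00835), and lower in WD+oil than in ND+CCl4, by -2.44 ± 0.28 (adjusted p = 0.0176). The neighbours in the order WD+oil and ND+oil (-0.94 ± 0.25, adjusted p = 0.0759) and WD+CCl4 and WD+oil (-1.14 ± 0.34, adjusted p = 0.786) did not pass.

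The rise under CCl4 shrank to 1.18 on the median-of-ratios scale and was not called there (adjusted p = 0.141). Without the Mup genes the decrease in WD+oil was -1.07 and passed (adjusted p = 0.0429), and with both treatments Cyp3a25, too, passed there (-1.57, adjusted p = 0.0229). The summed hepatocyte markers were higher in ND+CCl4, at 49204 and 57766 FPKM against 33218 to 41770 in ND+oil. Without albumin the sums overlapped, at 19712 and 17105 against 14781 to 20463. Of the 8 markers 5 had a difference above 0. These were albumin, Ttr, Ahsg, Cps1 and Hnf4a, and each lay wholly above ND+oil, Ahsg for instance at 4950 and 4275 against 3219 to 3553. Apoa1 and Apob overlapped ND+oil. Tat was lower, at 272 and 476 FPKM against 511 to 844. The sum of 9 pericentral markers such as Glul and Cyp2e1 was lower in ND+CCl4, at 1499 and 1803 against 2378 to 3219. None of these markers was at 0 in every library, and their part in the Cyp3a11 result was not tested. WD+CCl4 is a single library, assumed to vary like the other groups.

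Cyp3a59 and Cyp3a25, the near-identical pair, differed in level by an order of magnitude. Cyp3a59 was 11.1, 9.66 and 7.37 FPKM in ND+oil, 3.04 and 3.40 in WD+oil, 20.1 and 17.8 in ND+CCl4 and 4.74 in WD+CCl4. No groups overlapped, and WD+oil, not WD+CCl4, was the lowest. By limma, Cyp3a59 fell with the western diet by 1.28 ± 0.19 on the log2 scale (adjusted p = 0.0193), was lower in WD+oil than in ND+CCl4 (-2.24 ± 0.21, adjusted p = 0.0163) and lower in WD+CCl4 than in ND+CCl4 (-1.79 ± 0.25, adjusted p = 0.043). The difference of ND+CCl4 from ND+oil, 0.95 ± 0.19, did not pass (adjusted p = 0.0587).

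Cyp3a25, the Cyp3a transcript next in abundance to Cyp3a11, was 188, 151 and 122 FPKM in ND+oil, 74.6 and 80.4 in WD+oil, 141 and 166 in ND+CCl4 and 55.7 in WD+CCl4. Both groups on the western diet lay below both groups on chow, while ND+CCl4 lay inside the ND+oil range. None of its 7 comparisons passed by limma. The difference of WD+oil from ND+oil was -0.96 ± 0.22 (adjusted p = 0.0538), and it passed as -1.23 on the median-of-ratios scale (0.0434) and as -1.09 once the Mup genes were removed (0.025). WD+CCl4 differed from ND+oil by -1.43 ± 0.28 (adjusted p = 0.0722). For ND+CCl4 the difference was 0.02 (95% interval -0.49 to 0.53), and it turned to -0.31 with median-of-ratios scaling. The ratio of Cyp3a25 to Cyp3a59 accordingly went from 15.6 to 16.9 in ND+oil, to 23.6 and 24.6 in WD+oil, 7.03 and 9.36 in ND+CCl4 and 11.8 in WD+CCl4.

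Cyp3a13, the Cyp3a gene outside the cluster and a P450 also found in the intestine, had its highest level where Cyp3a11 had its lowest. It was 32.0, 31.4 and 27.9 FPKM in ND+oil, 34.0 and 40.0 in WD+oil, 35.2 and 44.3 in ND+CCl4 and 56.0 in WD+CCl4. Each of the 3 treated groups lay above ND+oil, with WD+CCl4 the highest, but no comparison passed by limma. The difference of WD+CCl4 from ND+oil was 0.86 ± 0.23 (adjusted p = 0.142), that of WD+oil 0.27 ± 0.18 (adjusted p = 0.408) and that of ND+CCl4 0.37 ± 0.18 (adjusted p = 0.259). With median-of-ratios scaling the latter pair was 0.01 and 0.05.

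Cyp3a16, a Cyp3a gene of immature liver, was listed at 0 in 6 libraries and was 3.13 and 7.32 FPKM in the ND+CCl4 libraries. It entered the tested genes only through those 2 libraries, so a low adjusted p against groups at 0 (0.00954 by limma against ND+oil) follows in part from that selection. It is given here as a level with no call and is left out of the counts of genes below. No fold is given against libraries at 0. Its transcript is 91.59% identical to that of Cyp3a11, and its FPKM was 0.175% and 0.336% of that of Cyp3a11 in the ND+CCl4 libraries, where Cyp3a11 was highest. Whether reads of Cyp3a11 contribute to it was not tested. The other genes of the cluster were low. Cyp3a41b was 1.06 and 3.56 FPKM in ND+CCl4 and 2.21 in WD+CCl4, Cyp3a41a 0, 2.55 and 2.09 in the same libraries, Cyp3a44 2.05, 0 and 0.709, and Cyp3a57 0.48 in WD+CCl4 only. All 4 were listed at 0 in the 5 libraries injected with oil. Neither Cyp3a41b nor Cyp3a41a, the only ones tested, passed (lowest adjusted p by limma = 0.0564), and the pseudogenes Cyp3a61-ps1 and Cyp3a63-ps were at 0 throughout.

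The make-up of the Cyp3a pool shifted with these changes. The summed FPKM of the 5 Cyp3a genes was 757 to 1145 in ND+oil, 449 and 513 in WD+oil, 1992 and 2414 in ND+CCl4 and 280 in WD+CCl4. Cyp3a11 made up 74.7% to 80.4% of it in ND+oil, 75.1% and 75.9% in WD+oil, 90.0% and 90.2% in ND+CCl4 and 58.4% in WD+CCl4. Cyp3a13, 2.80% to 4.14% of the pool in ND+oil, reached 7.58% and 7.81% in WD+oil and 20.0% in WD+CCl4, and was 1.77% and 1.83% in ND+CCl4. Shares within a library do not depend on how that library was scaled.

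**Figure D1:**
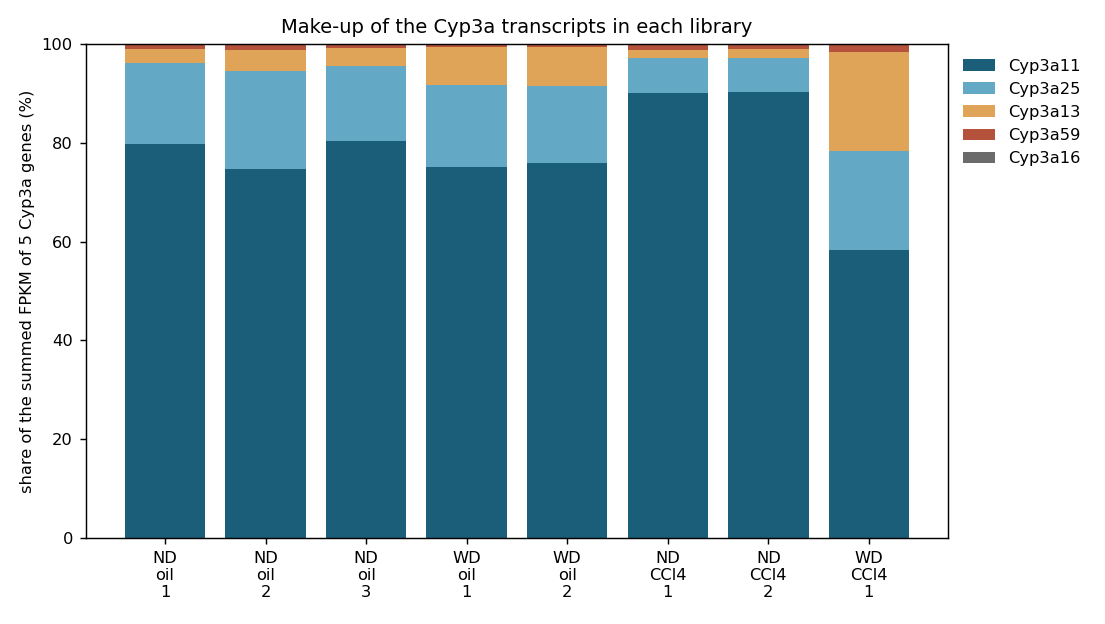
Share of each Cyp3a gene (percent, stacked bars) in the summed FPKM of Cyp3a11, Cyp3a25, Cyp3a13, Cyp3a59 and Cyp3a16, for each of the 8 libraries (ND, chow; WD, western diet; the last line is the replicate number). Cyp3a11 takes 90.0% and 90.2% in the ND+CCl4 libraries and 58.4% in WD+CCl4, where Cyp3a13 takes 20.0%.

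Cyp2b10, the classical CAR target, was low in these livers. It was 3.77, 1.39 and 0.716 FPKM in ND+oil, 0 and 1.07 in WD+oil, 10.8 and 9.68 in ND+CCl4 and 0 in WD+CCl4. The ND+CCl4 libraries were the highest and did not overlap any other group, whereas WD+oil overlapped ND+oil. By limma, WD+oil was lower than ND+CCl4 (-2.96 ± 0.49, adjusted p = 0.0494). The difference of ND+CCl4 from ND+oil, 2.06 ± 0.44, did not pass (adjusted p = 0.0758), nor did that of WD+oil from ND+oil, -0.91 ± 0.44 (95% interval -1.93 to 0.12, adjusted p = 0.269). For WD+CCl4 against ND+CCl4 the test also missed (adjusted p = 0.0882), and no fold is given against a library listed at 0. The CAR transcript itself was no higher in the ND+CCl4 libraries (19.5 and 26.5 FPKM) than in ND+oil (27.5 to 31.6).

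Cyp2b9, a Cyp2b gene higher in female liver, was 0, 1.61 and 0.286 FPKM in ND+oil, 6.46 and 5.57 in WD+oil, 3.96 and 9.83 in ND+CCl4 and 0.359 in WD+CCl4. It was high with the diet alone and with CCl4 alone, and the library with both lay inside the ND+oil range. By limma it rose in WD+oil over ND+oil by 2.22 ± 0.44 (adjusted p = 0.0369). The difference of ND+CCl4 from ND+oil was of like size, 2.29 ± 0.44, and did not pass (adjusted p = 0.055). WD+oil and ND+CCl4 differed by -0.07 (95% interval -1.19 to 1.05, adjusted p = 0.974), against -2.96 for Cyp2b10. WD+CCl4 was below WD+oil by -2.36 ± 0.59 (adjusted p = 0.603) and differed from ND+oil by -0.14 ± 0.56 (adjusted p = 0.927). The last turned to 0.18 with a pseudocount of 0.1 and to 0.26 without ND+oil library 2.

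Cyp2b13, whose start region is nearly that of Cyp2b9, was 0.487 and 0.75 FPKM in the WD+oil libraries and listed at 0 in the other 6, the ND+CCl4 libraries included. With no filter on low values it was tested only through those 2 WD+oil libraries. Its adjusted p against ND+oil in that fit (0.0459 by limma) follows in part from that selection and is not read as a call. Levels this close to the lowest value listed, in a gene that can share reads with Cyp2b9, are uncertain. Cyp2b19, Cyp2b23 and the pseudogenes Cyp2b26-ps and Cyp2b27-ps were listed at 0 in every library.

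**Figure D2:**
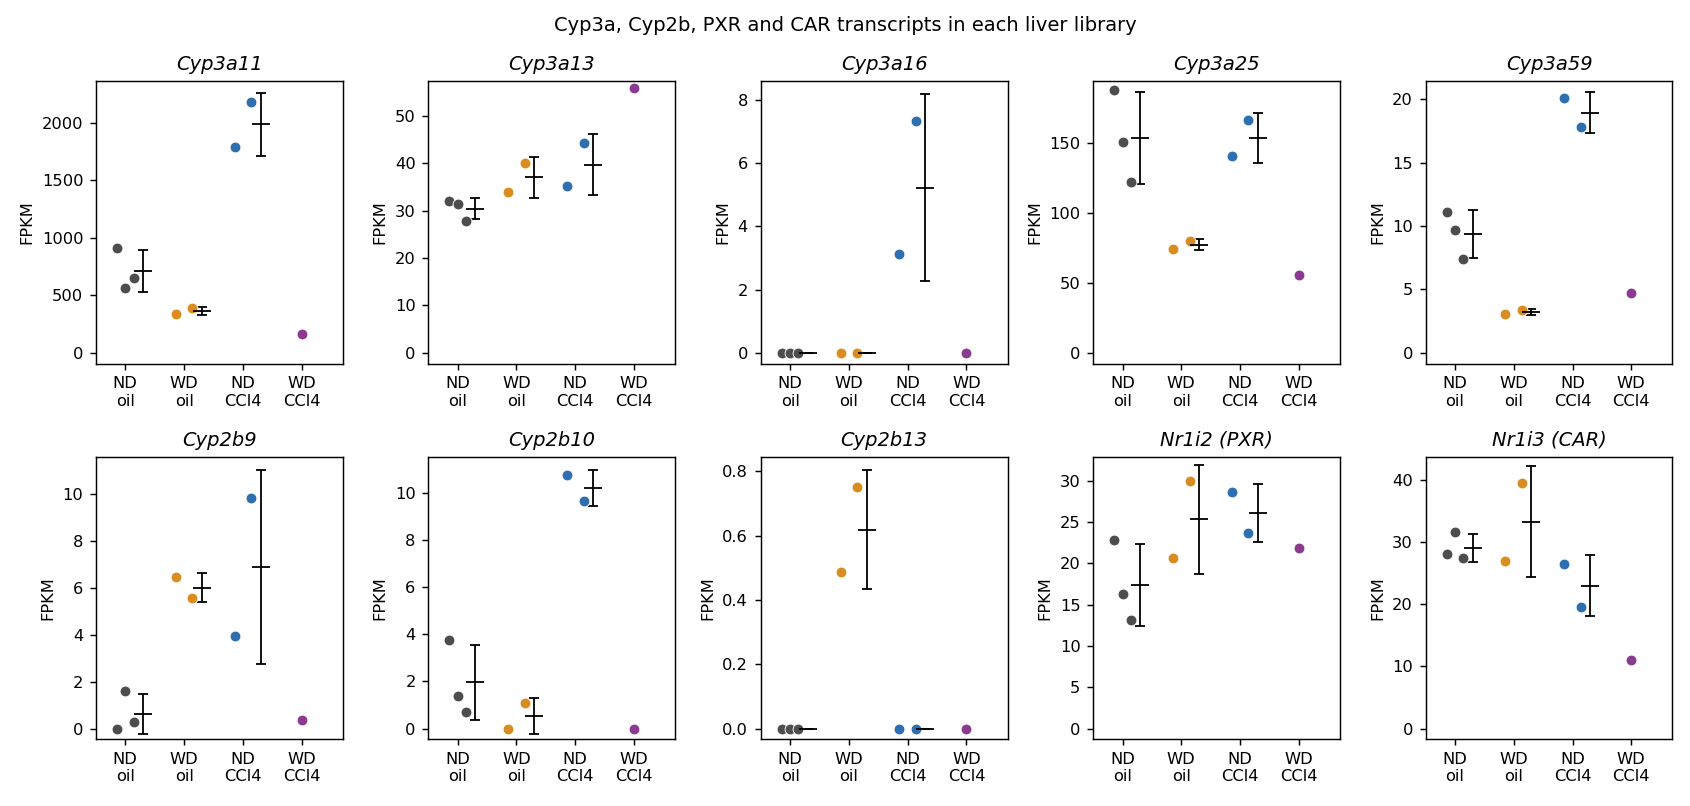
FPKM (linear axes) of each of the 10 genes in every library, by group (ND, chow; WD, western diet); dots are libraries and bars the group mean with its SD where a group has more than 1 library. Cyp3a11, Cyp3a59 and Cyp2b10 are highest in the ND+CCl4 libraries, Cyp2b9 is high in WD+oil and ND+CCl4, and CAR is lowest, at 11.0, in the WD+CCl4 library.

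Across the 8 libraries Cyp2b10 followed Cyp3a11 (Pearson r of log2(FPKM + 1) = 0.943) and Cyp3a59 (0.911), Cyp3a59 followed Cyp3a11 (0.883), and Cyp3a25 followed Cyp3a11 (0.852). Cyp2b9 was only loosely related to Cyp3a11 (0.327), as were PXR (0.18) and CAR (0.257), and for Cyp3a13 the value was negative (-0.31). These 8 points share 4 groups and each library's scaling, so the values describe a pattern and carry no test.

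The western diet alone was compared with chow in oil-injected mice. Of the tested genes other than Cyp3a16, Cyp2b9 rose and Cyp3a59 fell, 2 of 8 called beside 4.41% of all tested genes, 3.81% higher and 0.599% lower. In library values, 2 genes (Cyp3a13 and Cyp2b9) lay wholly above ND+oil and 3 (Cyp3a11, Cyp3a25 and Cyp3a59) wholly below, where 45.9% of all tested genes did not overlap, 40.7% higher and 5.18% lower. The median difference of the 8 genes was -0.37 beside 0.22 for all genes. The Cyp3a59 call ended without ND+oil library 1 (adjusted p = 0.0546), ND+oil library 2 (0.0656), WD+oil library 1 (0.117) or WD+oil library 2 (0.182). The Cyp2b9 call ended without ND+oil library 1 (0.0851), ND+oil library 3 (0.0994), WD+oil library 1 (0.17) or WD+oil library 2 (0.278), with a pseudocount of 0.1 (0.0816) and with median-of-ratios scaling (0.0737). With no filter on low values neither was called (0.0518 and 0.107), and in each of these fits both kept their direction.

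Macrophage markers moved with the diet: 9 of 11 rose, beside 3.81% of all tested genes. Their summed FPKM was 689 and 1384 in WD+oil against 92.2 to 182 in ND+oil. None of the 11 was at 0 in every library, and their part in the differences of Cyp2b9 and Cyp3a59 was not tested.

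CCl4 alone was compared with oil in chow-fed mice. Cyp3a11 rose, 1 of 8 called beside 1.42% of all tested genes, 1.02% higher and 0.4% lower. Here 6 of 8 genes lay wholly above ND+oil, all but Cyp3a25 and CAR, and CAR lay wholly below, where 45.6% of all tested genes did not overlap, 41.8% higher and 3.8% lower. The median difference of the 8 genes was 0.77 beside 0.26 for all genes. The Cyp3a11 call ended without ND+oil library 2 (adjusted p = 0.125), ND+oil library 3 (0.0911), WD+oil library 1 (0.0901), WD+oil library 2 (0.0849) or ND+CCl4 library 1 (0.146), and with no filter on low values (0.086). The difference stayed between 1.36 and 1.70 in all 8 leave-outs.

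Diet with CCl4 was compared with ND+oil on its single library. Cyp3a11 fell, 1 of 8 called beside 0.929% of all tested genes, 0.669% higher and 0.261% lower. In that library 5 genes (Cyp3a11, Cyp3a25, Cyp3a59, Cyp2b10 and CAR) lay below every ND+oil value and Cyp3a13 above, where 64.9% of all tested genes did not overlap, 51.5% higher and 13.4% lower. The Cyp3a11 call ended without ND+oil library 1 (adjusted p = 0.0576), 2 (0.0622) or 3 (0.064), or without WD+oil library 1 (0.091) or 2 (0.0884), with a pseudocount of 0.1 (0.0514) and with no filter (0.0564). The difference stayed between -2.23 and -1.88.

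The markers of neutrophils stood out in the WD+CCl4 library: 2 of 3 tested rose over ND+oil, beside 0.669% of all tested genes. The sum of the 4 listed was 407 FPKM against 1.77 to 8.66 in ND+oil and 19.1 and 37.7 in WD+oil. All 15 tested acute-phase and inflammation genes had a difference from ND+oil above 0, with a median of 1.46. By limma 0 passed, and Orm2, at 4.79 ± 1.04, had the lowest adjusted p (0.0901). An unadjusted p under 0.05 was found for 12, beside 1758 of all 11514 tested genes. The part of these markers and inflammation genes in the low Cyp3a11 and CAR of that library was not tested.

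WD+CCl4 was also set against each single treatment. Against ND+CCl4, Cyp3a11 and Cyp3a59 were lower, 2 of 8 called beside 0.261% of all tested genes, 0.165% higher and 0.0955% lower. In that library 7 of 8 lay wholly lower and Cyp3a13 higher, where 62.6% of all tested genes did not overlap, 23.2% higher and 39.3% lower. The Cyp3a11 call ended in 1 of 7 leave-outs (without WD+oil library 2, adjusted p = 0.0534), and the Cyp3a59 call in 5 of 7, without ND+oil library 2 (0.115), WD+oil library 1 (0.146), WD+oil library 2 (0.149), ND+CCl4 library 1 (0.109) or ND+CCl4 library 2 (0.0824), as well as with a pseudocount of 0.1 (0.0694) and with no filter (0.0555). Against WD+oil 0 of 8 were called by limma beside 0.0434% of all tested genes (0.0261% higher and 0.0174% lower). At an unadjusted p under 0.05 stood 4 (Cyp3a11, Cyp3a13, Cyp2b9 and CAR), beside 482 of all 11514 tested genes. Cyp3a13 and Cyp3a59 lay wholly higher there and Cyp3a11, Cyp3a25, Cyp2b9 and CAR wholly lower, 6 of 8 where 63.2% of all tested genes did not overlap, 26.4% higher and 36.8% lower.

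The single treatments were also set against each other. WD+oil was lower than ND+CCl4 for Cyp3a11, Cyp3a59 and Cyp2b10, 3 of 8 called beside 0.617% of all tested genes, 0.408% higher and 0.208% lower. Of the 8, 4 (these and Cyp3a25) lay wholly lower and CAR wholly higher, where 39.8% of all tested genes did not overlap, 17.1% higher and 22.8% lower. Without WD+oil library 1 the calls of Cyp3a11 (adjusted p = 0.168), Cyp3a59 (0.103) and Cyp2b10 (0.288) ended, and so they did without WD+oil library 2 (0.112, 0.111 and 0.143). That of Cyp2b10 also ended without ND+oil library 2 (0.0889), ND+CCl4 library 1 (0.0961) or ND+CCl4 library 2 (0.109), with median-of-ratios scaling (0.0735) and with a pseudocount of 0.1 (0.156), and with no filter all 3 did (0.0535 to 0.128).

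The interaction asks whether the CCl4 difference depended on the diet, and its western-diet arm rests on 1 CCl4 library. By limma 0 of 8 passed beside 0.0608% of all tested genes (0.0347% above 0 and 0.0261% below). At an unadjusted p under 0.05 stood 4, beside 1126 of all 11514 tested genes. Cyp2b9 had the largest estimate, -4.66 ± 0.74, and Cyp3a11 -2.65 ± 0.42 (adjusted p = 0.137 for both). For Cyp3a11 the CCl4 difference was 1.51 under chow and -1.14 under the western diet, and for Cyp2b9 2.29 and -2.36. That these differences are unlike was thus not shown by the adjusted test.

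**Figure D3:**
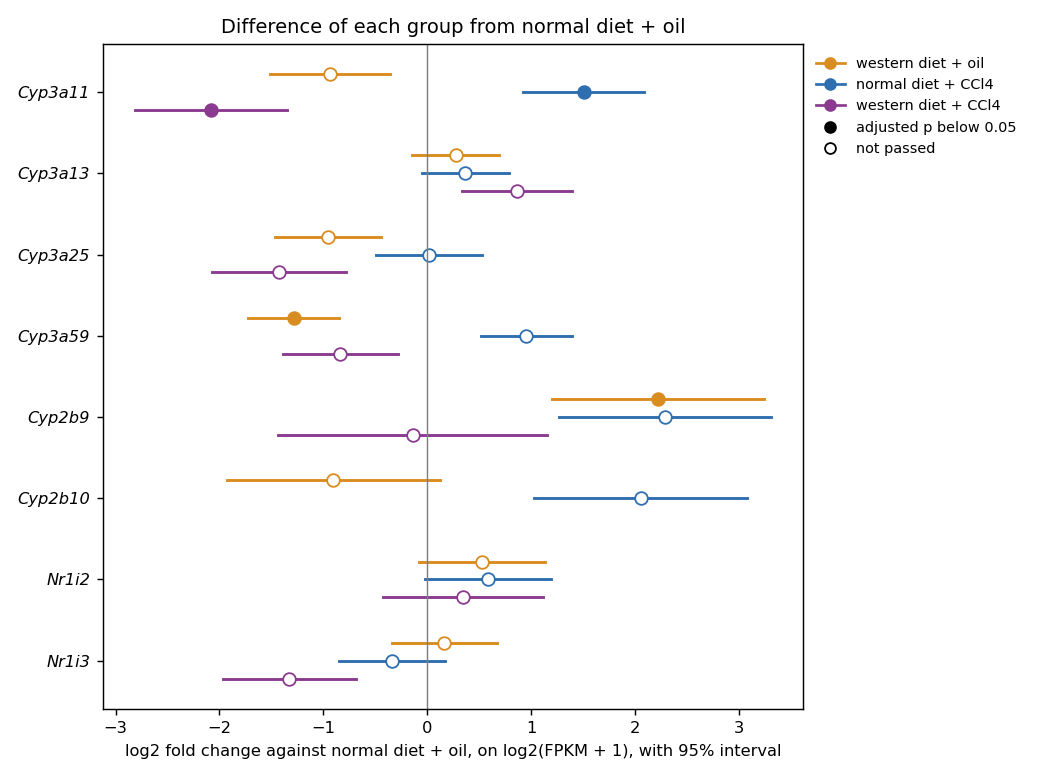
Difference of each group from ND+oil (limma, log2(FPKM + 1), with 95% interval), filled where the adjusted p is below 0.05. Cyp3a16, listed at 0 in ND+oil, and Cyp2b10 in WD+CCl4, listed at 0 there, are left out; Cyp3a11 reaches 1.51 with CCl4 under chow and -2.08 with both, while all PXR and CAR points are open.

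Other genes known as CAR or PXR targets, a list of 33 of which 29 were tested, were called in both directions. With the western diet 0 rose and 2 fell, beside 3.81% higher and 0.599% lower among all tested genes. The median difference was 0.00 beside 0.22 for all genes. With no filter 1 was called, and with 1 library left out 0 to 5 were. Ces2a, a carboxylesterase, was 167, 123 and 113 FPKM in ND+oil and 31.0 and 37.7 in WD+oil, a limma difference of -1.92 ± 0.25 (adjusted p = 0.0152). Cyp2c55, a P450, differed by -1.39 ± 0.27 (adjusted p = 0.0354).

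With CCl4 under chow 5 targets rose and 1 fell, beside 1.02% higher and 0.4% lower among all tested genes. Among the tested targets, Abcb1a reached 1 FPKM only in the ND+CCl4 libraries (1.83 and 1.18). It was thus tested only through the group where it was highest, and it stays in the target counts and medians. The median was 0.75 beside 0.26. Gstm3, a glutathione transferase, was 36.7 to 46.7 FPKM in ND+oil and 687 and 315 in ND+CCl4 (difference 3.51 ± 0.33, adjusted p = 0.0044 by limma). Cyp2c55 differed by 1.66 ± 0.27 (adjusted p = 0.0331) and the sulfotransferase Sult1d1 by 1.19 ± 0.19 (adjusted p = 0.0316). The one that fell was the P450 Cyp2c37 (-2.83 ± 0.39, adjusted p = 0.0227), at 7.53 and 22 FPKM in ND+CCl4 against 81.2 to 112 in ND+oil. With median-of-ratios scaling 1 rose and 1 fell, with no filter 0 were called, and with 1 library left out 1 to 10 were.

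In WD+CCl4 0 targets rose over ND+oil and 5 fell, beside 0.669% higher and 0.261% lower among all tested genes. The median was -0.45 beside 0.19. With no filter 1 was called, and with 1 library left out 1 to 7 were. The P450 Cyp2c29 was 483 to 523 FPKM in ND+oil and 26.3 in WD+CCl4 (-4.22 ± 0.54, adjusted p = 0.0185 by limma), Ces2a 16.3 (-2.95 ± 0.31, adjusted p = 0.00696), Cyp2c37 6.05 (-3.82 ± 0.49, adjusted p = 0.0188), and Cyp2c50 differed by -2.74 ± 0.45 (adjusted p = 0.043). Against ND+CCl4, 3 of 29 were lower, beside 0.0955% of all tested genes, and the median of the 29 was -0.99 beside -0.07 for all genes. Among the 3 was Slco1a4, a PXR-responsive uptake transporter, at 9.69 and 10.1 FPKM in ND+CCl4 and 0.914 in WD+CCl4 (-2.51 ± 0.32, adjusted p = 0.0294). It was also lower in WD+oil than in ND+CCl4 (-1.78 ± 0.26, adjusted p = 0.0317).

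The target calls named here were also refitted with each library left out in turn, and these kept their direction. Gstm3 with CCl4 was called in 8 of 8 such fits and Ces2a with both treatments in 7 of 7. Ces2a with the western diet was called in 6 of 8, ending without WD+oil library 1 (adjusted p = 0.101) or 2 (0.142), and Cyp2c55 in 4 of 8, ending without ND+oil library 1 (0.0796) or 2 (0.093) or WD+oil library 1 (0.144) or 2 (0.31). With CCl4, Cyp2c55 was called in 4 of 8, ending without ND+oil library 2 (0.0991), WD+oil library 1 (0.0894) or 2 (0.0815) or ND+CCl4 library 1 (0.214). Sult1d1 was called in 3 of 8, ending without the same 4 libraries (0.117, 0.0856, 0.0809 and 0.182) or ND+oil library 3 (0.0756). Cyp2c37 was called in 2 of 8, without ND+CCl4 library 2 and without the WD+CCl4 library, and elsewhere had an adjusted p of 0.05 to 0.0664. In WD+CCl4, Cyp2c29 was called in 3 of 7, ending without ND+oil library 1 (0.0529) or 2 (0.0556) or WD+oil library 1 (0.0607) or 2 (0.0582), and Cyp2c37 in 4 of 7, ending without ND+oil library 1 (0.0562) or WD+oil library 1 (0.0607) or 2 (0.0592). Cyp2c50 was called in 2 of 7, those without an ND+CCl4 library, and otherwise had 0.0869 to 0.109. Slco1a4 against ND+CCl4 was called in 2 of 7, without ND+oil library 1 or 3, and otherwise had 0.0672 to 0.0966. Its call between the single treatments ended without ND+oil library 2 (0.0591), WD+oil library 1 (0.252) or 2 (0.178) or ND+CCl4 library 1 (0.0717) or 2 (0.0848). With no filter on low values the Ces2a calls of the diet and of both treatments held and the others named here ended (adjusted p 0.0501 to 0.1). With replicate number added to the fit as a block, the calls of Gstm3 with CCl4 and Cyp2c55 with the diet held. The others named here ended in that fit (adjusted p 0.0534 to 0.197), Ces2a with the diet (0.067) and with both (0.0596) among them. With median-of-ratios scaling those of Sult1d1 (0.065) and Cyp2c55 (0.0639) with CCl4, Cyp2c50 (0.0625) and Slco1a4 between the single treatments (0.0528) ended, and with a pseudocount of 0.1 those of Cyp2c55 with CCl4 (0.0597) and Cyp2c50 (0.0632).

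**Figure D4:**
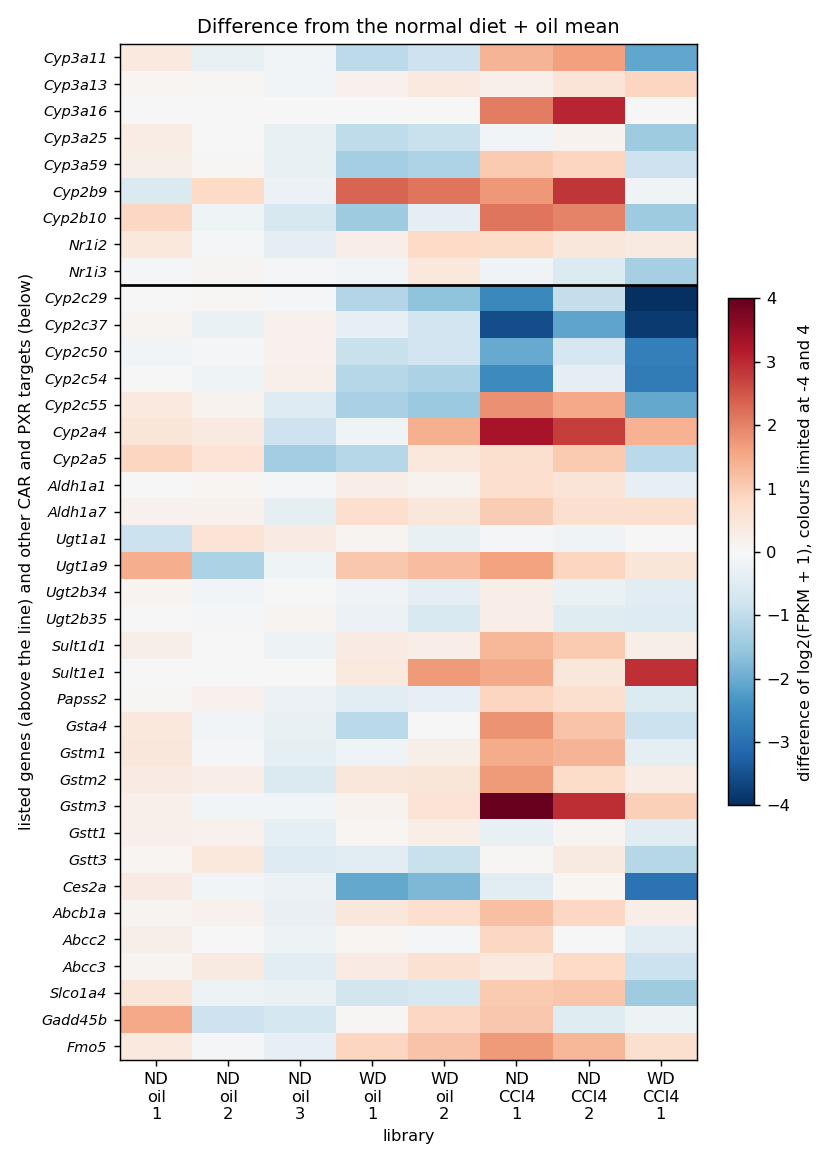
Difference of log2(FPKM + 1) from the ND+oil mean (colour, limited at -4 and 4) for the 9 tested genes above the line and the 29 tested CAR and PXR targets below it, 1 column per library. Cyp3a11, Cyp3a59 and Cyp2b10 are red in the ND+CCl4 columns and blue in WD+CCl4, whereas Cyp2c29 and Cyp2c37 are blue in both.

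Of 24 receptor partners and regulators, RXR subunits, HSP90 genes, coactivators and liver factors such as Hnf4a among them, 0 passed by limma in any of the 7 comparisons. Those nearest to passing were Hsp90ab1 (0.50, adjusted p = 0.187) and Foxo1 (0.42, adjusted p = 0.161) with the western diet and Nr1h4 (0.57, adjusted p = 0.156) and Foxa2 (1.18, adjusted p = 0.176) with CCl4. At an unadjusted p under 0.05 stood 2 with the western diet, 3 with CCl4 and 0 with both. Of 16 genes for haem synthesis and electron supply to P450 enzymes, 0 passed in any comparison either. There 2, 2 and 1 were at an unadjusted p under 0.05 in the same 3 comparisons. Of all 11514 tested genes 2681, 2621 and 1758 were. Por, which passes electrons to every microsomal P450, was 92.4, 67.6 and 34.1 FPKM in ND+oil, 71.8 and 159 in WD+oil, 194 and 147 in ND+CCl4 and 90.3 in WD+CCl4. ND+CCl4 lay above ND+oil (1.48 ± 0.46, adjusted p = 0.14). Alas1, the rate-limiting enzyme of haem synthesis, was 223, 151 and 169 FPKM in ND+oil, 203 and 381 in WD+oil, 295 and 357 in ND+CCl4 and 156 in WD+CCl4, and its difference of ND+CCl4 from ND+oil was 0.86 ± 0.30 (adjusted p = 0.169).

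Cyp2b9 is one of the genes that differ between the sexes, so the sex-biased lists are given beside it. Of 20 male-biased liver genes, 8 fell and 0 rose with the western diet, 7 fell and 0 rose with CCl4 and 4 fell and 0 rose with both, all against ND+oil. Of all tested genes 0.599%, 0.4% and 0.261% were called lower. The medians were -1.56, -1.16 and -1.39 beside 0.22, 0.26 and 0.19 for all genes. Hsd3b5, a male-specific steroid enzyme, differed by -4.30 ± 0.49 with the diet (adjusted p = 0.0125 by limma) and by -5.44 ± 0.49 with CCl4 (adjusted p = 0.00425). The former call ended without WD+oil library 2 (0.063) and the latter with no filter (0.0584). Of 15 female-biased genes only 6 were tested. Among all tested genes 3.81% were called higher with the diet, 1.02% with CCl4 and 0.669% with both. With the diet 2 rose, Cyp17a1 (1.84 ± 0.30, adjusted p = 0.0249) and Ntrk2, which was listed at 0 in the ND+oil libraries and was 1.67 and 4.13 FPKM in WD+oil. With CCl4 1 rose, Cyp2a4, which is also on the target list (3.02 ± 0.52, adjusted p = 0.0402), and with both 1, Cyp17a1 (2.73 ± 0.38, adjusted p = 0.0265). The Cyp17a1 calls ended without ND+oil library 1 (0.057 with the diet and 0.0562 with both), WD+oil library 1 (0.141 and 0.0607) or WD+oil library 2 (0.149 and 0.0592), and that with the diet also without ND+oil library 2 (0.0577). With no filter neither was called (0.0716 and 0.06), and with a pseudocount of 0.1 that with both was not (0.051). With replicate number as a block these calls and that of Cyp2a4 ended (0.103, 0.101 and 0.13). That of Cyp2a4 ended without ND+oil library 1 (0.0682), 2 (0.0994) or 3 (0.0821), WD+oil library 1 (0.0505) or ND+CCl4 library 1 (0.254), with a pseudocount of 0.1 (0.0609), with no filter (0.124) and with median-of-ratios scaling (0.0737). Cyp2b9 lay within the ND+oil range in WD+CCl4, the library in which 18 of the 20 male-biased genes had a difference from ND+oil below 0. In WD+oil and ND+CCl4, where Cyp2b9 was higher, 19 and 18 of the 20 did. Of all tested genes 76.7% in WD+oil, 83.9% in ND+CCl4 and 72.2% in WD+CCl4 had a difference above 0. A link between Cyp2b9 and the male-biased genes was not tested.

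The genes whose pattern over the 8 libraries was most like that of each member, among all tested genes with a name other than a predicted one, were listed by Pearson r of log2(FPKM + 1). For Cyp3a11 they were Slco1a4 (0.991), Cryl1 (0.988) and Rdh1 (0.979), with Slco1a4 at 6.2, 3.44 and 3.23 FPKM in ND+oil, 2.06 and 2.28 in WD+oil, 9.69 and 10.1 in ND+CCl4 and 0.914 in WD+CCl4. For Cyp2b10 they were the carboxylesterase Ces1b (0.978), Gsta4 (0.978) and Amd2 (0.975). Cyp3a25 went with Ces2a (0.986), Mcm10 (0.970) and Serpina1b (0.957), and Cyp3a59 with the urea-cycle enzyme Arg1 (0.972), Bdh2 (0.959) and Cyp2c55 (0.952). For Cyp3a16 they were Itch (0.974), Lonrf1 (0.962) and Cdip1 (0.948), and for Cyp3a13 Cdhr5 (0.955), Rdm1 (0.943) and Stap2 (0.937). For Cyp2b9 they were Mfsd11 (0.957), Dld (0.948) and the microRNA locus Mir6972 (0.943). PXR went with Spata24 (0.992), Banf1 (0.990) and Hras (0.984), and CAR with Aptx (0.918), Slc25a21 (0.882) and Tmem41b (0.880). With 8 libraries in 4 groups and 11514 genes to choose from, high values arise easily, and they are given as a description with no test.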

How the data were processed

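Bulk liver RNA-seq of 8 libraries in 4 groups was used, as the FPKM table deposited by the authors, with a gene name and Ensembl ID per row and 1 column per library. Libraries were made with a stranded mRNA kit, per the labels' protocols. The submitters' processing notes name StringTie 2.1.0, HISAT2 2.2.1, cutadapt 3.7 and FastQC 0.11.9, and the build GRCm38, with no roles. FPKM is relative to the library total, so a few very abundant genes shift all others, and no counts were used, so no count model or depth-based interval was possible.

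Values were tested as log2(FPKM + 1) with limma 3.58.1 (R 4.3.3) in 1 fit of 4 group means over the 8 libraries, with a trended prior, on genes that reached 1 FPKM in 2 or more libraries. The fit has 4 residual and 7.93 total degrees of freedom. Two-sided p-values were adjusted by Benjamini-Hochberg over all 11514 genes in each of 7 comparisons, and an adjusted p below 0.05 was called. Fold changes are on the log2(FPKM + 1) scale, which understates changes of low genes. The single WD+CCl4 library is assumed to vary like the other groups. The fit was tested on simulated data with known changes.

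All 10 genes were described in every comparison, each other Cyp3a or Cyp2b gene once, and from each other list at most 4 tested genes with the smallest p per comparison. Further genes were the 3 with the highest correlation to each member. The members and lists were chosen with earlier results of these data known, so their directions are not independent evidence. Counts of called genes among the 10 leave out Cyp3a16, a choice made after seeing the data, except where processing settings are compared. The alternatives tried were median-of-ratios scaling, removal of the 22 Mup genes with rescaling, a replicate block, omission of each library in turn, a smaller pseudocount (0.1), a stricter filter (mean of 5 FPKM or more) and none. Start-site windows came from RefSeq (GRCm38.p6), gene positions and transcripts from GENCODE M21.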

Additional observations from a re-analysis of the deposited data

How the results depend on the processing

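With few libraries, the number of calls moved more than the differences themselves. Single-gene checks left out Cyp2b13, which was not tested, and every comparison with a group listed at 0 throughout. None was therefore made for Cyp3a16, nor for Cyp2b10 where WD+CCl4 took part. Of the checks made on members, 604 kept direction and side of the threshold, 55 lost a call, 14 gained one and 17 changed sign. Of those on other named genes, 374 kept and 196 lost theirs. Called members are given in the order WD+oil, ND+CCl4 and WD+CCl4 against ND+oil, WD+oil against ND+CCl4, WD+CCl4 against WD+oil and against ND+CCl4, and the interaction. Without Cyp3a16 they were 2, 1, 1, 3, 0, 2 and 0. With Cyp3a16, which was tested only through the ND+CCl4 libraries, they were 2, 2, 1, 4, 0, 2 and 0. The counts below include Cyp3a16 where it was tested. With no filter they also include Cyp2b13, the 1 gene called there for WD+oil against ND+oil, which was tested only through the WD+oil libraries. In that order, the counts that moved by over 1.5 times were: with a pseudocount of 0.1 to 1, 1, 0 and 2 in the first 4 and to 1 in WD+CCl4 against ND+CCl4, with no filter to 1, 0, 0 and 0 and to 1, with a mean FPKM of at least 5, which drops Cyp3a16, Cyp2b9 and Cyp2b10, to 1 for WD+oil and 2 for WD+oil against ND+CCl4, with median-of-ratios scaling to 1 for ND+CCl4 (there WD+oil against ND+CCl4 had 3, and the 2 of WD+oil were both lower), and without the Mup genes to 4 for WD+oil and 2 for WD+CCl4. Leaving out 1 library gave 0 to 3, 0 to 3, 0 to 3, 0 to 4, 0 to 0, 0 to 3 and 0 to 0.

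All called genes were 508, 164, 107, 71, 5, 30 and 7. For WD+oil against ND+oil there were 121 with no filter, 190 with a mean FPKM of at least 5, 289 with median-of-ratios scaling and 310 without Mup genes. For ND+CCl4 there were 18 with no filter and 90 with median-of-ratios scaling. For WD+CCl4 against ND+oil there were 43 with a pseudocount of 0.1, 171 with no filter and 42 with a mean FPKM of at least 5. WD+oil against ND+CCl4 gave 6 with no filter. WD+CCl4 against WD+oil gave 0 with a pseudocount of 0.1, 69 with no filter and 0 with a mean FPKM of at least 5, and against ND+CCl4 15 and 109 with the former 2 settings. The interaction gave 3, 17, 3, 0 and 2 under the 5 settings in the order above. Leaving out 1 library gave 4 to 1159, 22 to 1165, 36 to 486, 1 to 122, 1 to 16, 6 to 32 and 0 to 168.

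Sign changes were all in differences that passed in neither fit. Nr1i3 in WD+oil against ND+oil was -0.10 with median-of-ratios scaling and ran from -0.10 to 0.43 with 1 library left out. Cyp3a25 in ND+CCl4 against ND+oil was -0.31 with median-of-ratios scaling, -0.11 without Mup genes and -0.13 with the replicate block, and from -0.13 to 0.17 with 1 library left out. Cyp2b9 in WD+CCl4 against ND+oil was 0.18 with a pseudocount of 0.1 and 0.14 with the replicate block, and from -0.43 to 0.26 with 1 library left out. Leaving out 1 library also gave, for WD+oil against ND+CCl4, -0.26 to 0.065 for Cyp3a13, -0.63 to 0.50 for Cyp2b9 and -0.32 to 0.20 for Nr1i2, and for WD+CCl4 against WD+oil -0.44 to 0.079 for Nr1i2. Cyp3a11 with CCl4, Cyp2b9 with the diet and Cyp2b10 between the single treatments were not called with median-of-ratios scaling. Leaving out any library other than the single WD+CCl4 library takes a residual degree of freedom from every comparison. Otherwise the cause was not tested.

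Deviations of same-numbered libraries from their group means correlated between -0.279 and -0.014. In a group of 2 libraries the deviations mirror each other, so few of these values are independent, and WD+CCl4 gave none. Whether replicate numbers pair the libraries therefore cannot be decided from them. With the replicate block, members called were 0, 0, 0, 2, 0, 0 and 0 and over the target list 1, 1, 0, 2, 0, 1 and 0. All genes then gave 32, 49, 6, 0 for WD+CCl4 against WD+oil, 11 against ND+CCl4 and 2 for the interaction. Depth is unknown, and low FPKM such as those of Cyp2b13 and Cyp3a16 have no interval.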

Other observations

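P450 genes outside the Cyp3a and Cyp2b families, a list of 31 of which 24 were tested, mostly lay lower in the treated livers. Against ND+oil, 18 of 24 were below 0 with the western diet, 17 with CCl4 and 20 with both, with medians of -0.31, -0.32 and -0.57 beside 0.22, 0.26 and 0.19 for all genes. Cyp1a2, which oxidises caffeine and is induced through the aryl hydrocarbon receptor, was 289, 231 and 211 FPKM in ND+oil, 46.7 and 50.5 in WD+oil, 286 and 179 in ND+CCl4 and 29.5 in WD+CCl4. It fell with the diet (-2.29 ± 0.25, adjusted p = 0.0111 by limma) and with both (-2.99 ± 0.31, adjusted p = 0.00696). These calls stayed in 6 of 8 and 7 of 7 leave-outs, ending without WD+oil library 1 (0.0832) or 2 (0.129) for the diet. With the replicate block the call with both ended (0.0538).

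Cyp2u1, a fatty acid hydroxylase, was 9.0, 7.09 and 7.04 FPKM in ND+oil and 0.918 to 1.73 in the other 5 libraries. It fell in all 3 treated groups, by limma differences of -1.94 ± 0.16 (adjusted p = 0.00342), -1.73 ± 0.16 (adjusted p = 0.0044) and -2.18 ± 0.20 (adjusted p = 0.00592). The call with the diet ended without WD+oil library 1 (0.0607) or 2 (0.0767), and the others were made in all leave-outs. With the replicate block the call with both ended (0.0596). Cyp2a22 was 0, 0.58 and 0 FPKM in ND+oil, 1.30 and 3.38 in WD+oil, 3.91 and 4.26 in ND+CCl4 and 1.47 in WD+CCl4. It was called higher with the diet (1.45 ± 0.31, adjusted p = 0.0464) and with CCl4 (2.12 ± 0.31, adjusted p = 0.0259). The former call ended without any of 5 libraries, ND+oil 1 (0.102), 2 (0.0658) or 3 (0.12) and WD+oil 1 (0.0832) or 2 (0.354), and the latter without ND+oil library 1 (0.0682) or 3 (0.0767) or ND+CCl4 library 1 (0.146). With a pseudocount of 0.1 (0.069 and 0.0597), no filter (0.111 and 0.0847) or median-of-ratios scaling (0.0814 and 0.0505) neither was called. The same held with the replicate block (0.127 and 0.0559). Without the Mup genes that with the diet was not called (0.0563).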
